A study of Sus scrofa with 9 samples.

Results

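Mature sperm were compared with metaphase II (MII) oocytes in 6 of the 9 porcine libraries of the series, chosen by their labels alone: 3 of MII oocytes and 3 of sperm. Both groups were labelled as untreated and neither carried a genetic change. The MII oocytes came from follicles of postpubertal Long White gilts at a slaughterhouse, were matured in culture and were freed of cumulus cells with hyaluronidase, so each library is a pool of cells. The sperm were fresh, purified, mature sperm of adult Large White boars, so gamete and breed cannot be told apart. Total RNA depleted of ribosomal RNA was sequenced with strand information, and mRNA, long noncoding RNA (lncRNA) and circular RNA (circRNA) were each tabulated. Nothing in the labels says that the 3 libraries of a gamete came from separate pools or animals, so the p-values measure the spread between these samples, which may be technical.

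A fully grown oocyte stores a large pool of maternal RNA that drives maturation and the first cell cycles of the embryo. Sperm lose most of their cytoplasm while protamines replace histones on the DNA, and the RNA they keep is largely made before that, in the testis. A circRNA forms when a splice donor joins an acceptor that lies upstream of it in the same host gene. It has no free end and is known for its stability, and it is counted by the reads that cross this back-splice junction.

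The circRNA columns of sperm replicates 1 and 3 were identical at every row, including all 562 circRNAs above 0. The other pairs of circRNA columns within a gamete, those with sperm replicate 2 included, were equal at no more than 0.546% of the circRNAs detected in either. These 2 columns were counted as 1 sample, so circRNA results rest on 3 MII oocyte and 2 sperm libraries, and sperm replicate 3 is not named again for circRNAs. In the mRNA and lncRNA tables all 6 libraries were distinct.

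The mRNA table held 101634238, 103318452 and 101252749 counts in MII oocytes and 25745522, 26494348 and 25921986 in sperm, a 3.92-fold larger total in the oocytes. The oocyte totals were above the valid reads that the study lists for these libraries, so a count of this table is not simply 1 read, and how it was made is not given in the sources used here. Summed coverage of the lncRNA table went the other way, from 1423560 to 1480714 in MII oocytes and from 2317207 to 2418233 in sperm, 1.64-fold higher in sperm. The circRNA table held 24217, 24002 and 22809 back-splice counts in MII oocytes and 155731 and 167851 in sperm, 6.83-fold more in sperm. The study lists similar numbers of valid reads for both gametes, so these totals measure neither cell number nor RNA per cell. Bulk libraries cannot tell those apart, and how reads were divided among the tables was not tested. Levels are compared below as shares of a library or after scaling, except that lncRNA coverage was tested as deposited. Printed counts and numbers of features are unscaled unless stated.

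MII oocytes held far more loci of the mRNA table and far more lncRNA transcripts than sperm. Of all 70688 loci tabulated for mRNA, however, 53538 also carried lncRNA transcripts. A locus counted here therefore need not be an mRNA, and the numbers of loci and of lncRNA transcripts are not independent of each other. Loci of the mRNA table above 0 numbered 35091, 35244 and 37631 in MII oocytes and 13478, 14046 and 13293 in sperm. Group means were 35989 ± 1424 and 13606 ± 392 (SD, n = 3 each), a 2.65-fold difference with no overlap of the groups. With each library brought to the smallest total by calculation, 33675, 33675 and 35379 loci remained in MII oocytes and 13478, 14041 and 13292 in sperm, a gap nearly as wide.

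For lncRNA, 25260, 25454 and 27632 transcripts were above 0 in MII oocytes and 6411, 6674 and 6250 in sperm, a 4.05-fold difference. Both tables gave an exact permutation p of 0.1 (two-sided), the smallest that 3 libraries against 3 allow. That p therefore cannot pass a threshold of 0.05, whatever the size of the gap.

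CircRNAs did not show this gap. MII oocytes had 595, 590 and 675 circRNAs above 0 and sperm had 562 and 568, with means of 620 ± 47.7 (SD, n = 3) and 565 ± 4.24 (SD, n = 2) and an exact permutation p of 0.2, the smallest for 3 against 2. The order turned when only circRNAs with 10 or more counts were taken, to 368, 348 and 308 in MII oocytes and 499 and 501 in sperm, whose totals were 6.83-fold larger. Brought to the smallest total by calculation, the libraries had 591, 587 and 675 circRNAs in MII oocytes and 514 and 517 in sperm, and this gap was wider than that of the libraries as deposited. Host genes with a circRNA numbered 441, 458 and 490 in MII oocytes and 484 and 498 in sperm, and these groups overlapped.

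**Figure D1:**
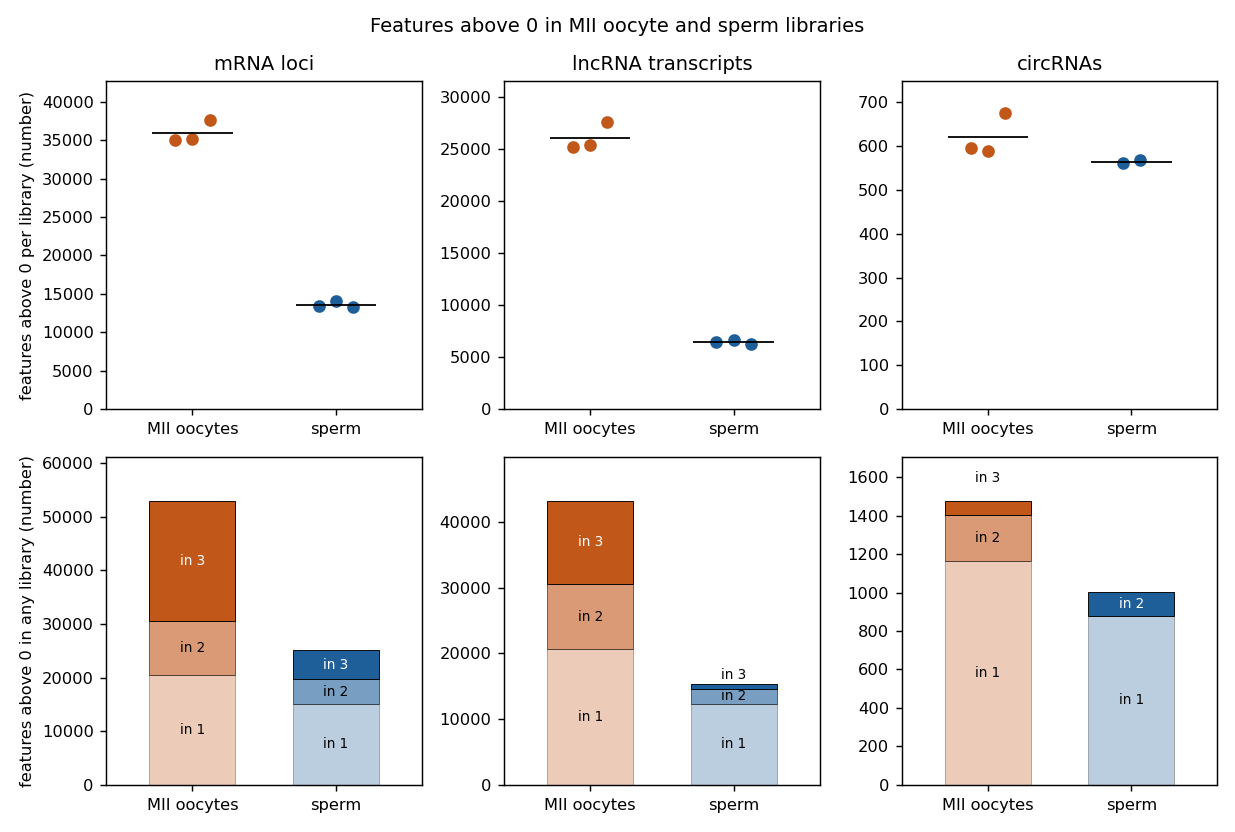
The upper panels plot the number of mRNA loci, lncRNA transcripts and circRNAs above 0 in each library (points) with the group means (bars) for MII oocytes and sperm. The lower panels split the features found in any library of a gamete by how many of its libraries held them. For mRNA loci the oocyte libraries lie between 35091 and 37631 and the sperm libraries between 13293 and 14046, while circRNA numbers are close.

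The libraries of sperm shared less with each other than those of MII oocytes. Of the 52967 mRNA loci found in any oocyte library, 22446 were in all 3 and 20414, or 38.5%, in 1 alone. Of the 25208 found in any sperm library, 5540 were in all 3 and 15139, or 60.1%, in 1 alone. The loci confined to 1 sperm library were not low: their median count there was 1123, against 102 for the loci confined to 1 oocyte library.

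Shared loci, as a percentage of all loci detected in either library of a pair, ran from 54.6 to 56.6 among MII oocytes, from 34.8 to 35.1 among sperm and from 19.99 to 21.8 between gametes. For lncRNA the same ranges were 42.5 to 44.7, 13.7 to 14.2 and 5.15 to 7.16. For circRNAs they were 13.4 to 15.2 among MII oocytes, 12.5 for the sperm pair and 3.12 to 5.46 between gametes. In each table the pairs between gametes shared least and the pairs of MII oocytes shared most.

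Most sperm mRNA counts nevertheless fell in loci that oocytes also held. The 15127 loci above 0 in any library of both gametes were 28.6% of the oocyte loci and 60.0% of the sperm loci, and they took 93.9% of the oocyte and 77.5% of the sperm counts. Loci in every sperm library and no oocyte library numbered 339 and took 2.44% of the sperm counts, and loci in every oocyte library and no sperm library numbered 11470 with 4.77% of the oocyte counts. The picture differed for circRNAs, where 140 were in both gametes, 9.49% of those of MII oocytes and 13.9% of those of sperm, with 24.0% and 29.1% of the counts.

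The RNA of sperm was more concentrated at the very top of the mRNA table and flatter below it. The highest locus held 2.55%, 2.36% and 2.51% of the counts in MII oocytes and 4.91%, 4.77% and 4.82% in sperm, and the 10 highest held 8.52 to 8.85% and 12.5 to 12.9%. For the 100 highest loci the order was reversed, at 23.9%, 23.9% and 24.1% in MII oocytes and 21.7%, 22.2% and 21.8% in sperm. Taken to the 1000 highest, the shares were 59.2 to 59.4% in MII oocytes and 46.4 to 46.9% in sperm.

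It took 618 to 627 loci to reach 50% of the counts in MII oocytes and 1188 to 1219 in sperm. The effective number of loci, the number of equally abundant loci that would give the same Shannon entropy, was 3358 to 3390 in MII oocytes and 3643 to 3674 in sperm. Sperm thus had the higher effective number although they held fewer loci in all. The median count of a detected locus was 182, 190 and 163 in MII oocytes and 959, 876 and 1000 in sperm, although the oocyte totals were larger.

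In the lncRNA table, taken transcript by transcript, the top was heavier in MII oocytes. Several of the highest transcripts of sperm lay at the same locus, so this order need not hold for loci. The highest transcript held 7.96%, 7.76% and 7.82% of the coverage in MII oocytes and 4.57%, 4.23% and 4.08% in sperm, and the 100 highest held 31.3 to 31.4% and 22.2 to 22.3%. The tail was much longer in oocytes: 11144 to 11221 transcripts reached 90% of their coverage and 2774 to 2805 did in sperm. The 1000 highest transcripts held slightly more in sperm, 51.1 to 51.4% against 48.7 to 49.2%.

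CircRNA counts were concentrated in few circles in MII oocytes. The highest held 14.6%, 15.0% and 15.8% of the counts in MII oocytes and 4.05% and 3.29% in sperm. Together the 10 highest held 30.5%, 32.0% and 34.2% in MII oocytes and 16.2% and 18.1% in sperm, and the 100 highest 62.2%, 63.7% and 66.8% against 57.1% and 58.7%. The effective number of circRNAs was 181, 172 and 154 in MII oocytes and 277 and 266 in sperm. A detected circRNA had a median count of 20, 17 and 6 in MII oocytes and 156.5 and 133 in sperm, so a circRNA seen in sperm was usually carried by many counts. None of the shares held by the 10 or 100 highest features overlapped between the gametes, and each had the smallest exact permutation p its design allows (0.1 for mRNA and lncRNA, 0.2 for circRNA).

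**Figure D2:**
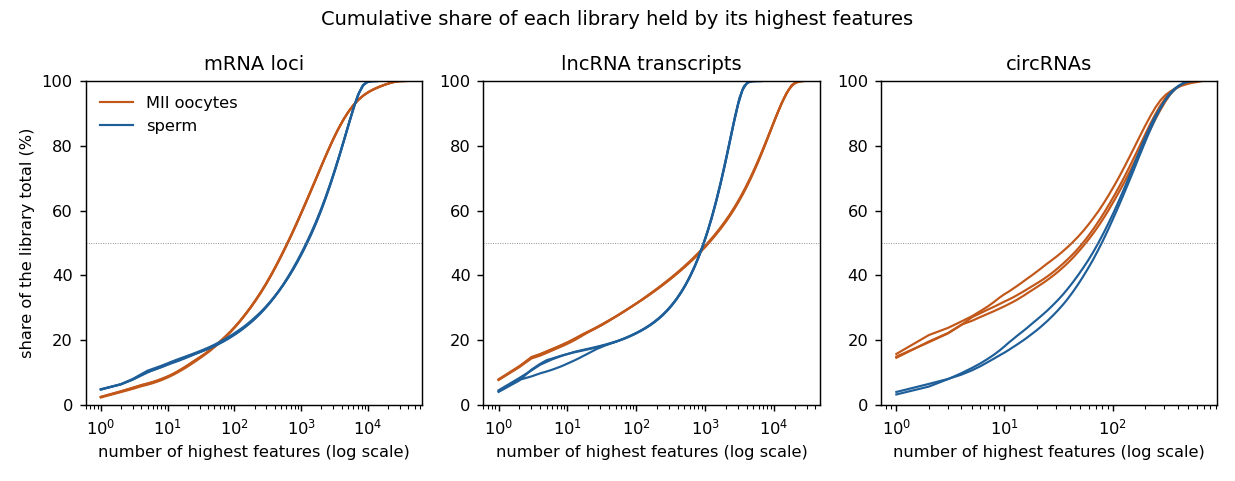
Each line is 1 library and gives the cumulative percentage of the table's total (vertical axis) held by its highest features (horizontal axis, log scale of rank) for mRNA loci, lncRNA transcripts and circRNAs. For mRNA the sperm lines start higher, with 12.5 to 12.9% in the 10 highest loci, and run below the oocyte lines by the 100th, and for circRNA the oocyte lines start higher, with 14.6 to 15.8% in the first circle, and meet the sperm lines near the end.

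Of the 70688 mRNA loci 19353 were high enough in enough libraries to be tested. By edgeR's quasi-likelihood test 10463 of them were lower in sperm (54.1%) and 1497 were higher (7.74%), where a call needed both an absolute log2 fold change of 1 or more and a p under 0.05 after Benjamini-Hochberg adjustment. Loci above 0 in all 3 libraries of a gamete numbered 22446 in MII oocytes and 5540 in sperm. The filter therefore favoured oocyte loci, and the split partly follows from it. Without a filter on low counts, over 63048 loci, 304 were lower and 193 higher. The median log2 fold change of the tested loci was -6.00, sperm against MII oocytes. A locus is named below by the gene that the lncRNA table gives for transcripts of the same assembled locus. This says where the locus lies, not that its reads are that gene's mRNA, and 1 gene can have many loci. Of the tested loci 5295 had such a label, of which 362 were higher in sperm (6.84%) and 3399 lower (64.2%).

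The counts of MII oocytes were led by loci without a label. MSTRG.40647 had 2586724, 2433810 and 2536514 counts in MII oocytes and 2440, 1041 and 569 in sperm (log2 fold change -8.76 ± 0.70 SE). MSTRG.41331 had 1708519 to 1762202 in MII oocytes and 586 to 1062 in sperm, and MSTRG.1250 had 1026461 to 1106324 and 363 to 607. These 3 loci held 2.47%, 1.70% and 1.06% of the oocyte counts and all were lower in sperm. Counts also grow with the length of a locus, which the table does not give, so such an order is one of counts and not of molecules.

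Among labelled loci the oocyte list opened with UHRF2, a ubiquitin ligase that reads chromatin marks, at 450375, 479210 and 472477 counts in MII oocytes and 1705, 3400 and 4802 in sperm. Its log2 fold change was -5.05 ± 0.42 (edgeR adjusted p = 0.00201). OOSP3, of the oocyte-secreted protein family, had 175524, 169839 and 182559 against 59, 99 and 38 (-9.30 ± 0.51, edgeR adjusted p = 0.000503). The groups did not overlap for any labelled locus named here for its oocyte counts.

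The ovochymase OVCH1, a protease, the amino acid transporter SLC6A20 and CD28, a co-stimulatory receptor of T cells, were also lower in sperm, with log2 fold changes of -8.55 ± 0.31, -9.23 ± 0.56 and -9.39 ± 0.57. ERO1B, an oxidase of the endoplasmic reticulum, TMEM123 and SAP30, of a histone deacetylase complex, had smaller differences of -3.02 ± 0.96, -4.02 ± 0.49 and -4.49 ± 0.89. UBE2D3, a ubiquitin-conjugating enzyme, stayed inside the fold threshold at -0.84 ± 0.29. It had 89504, 83913 and 94095 counts in MII oocytes and 7757, 12718 and 14698 in sperm, or 0.0874% and 0.0449% of the counts.

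The sperm counts were led by MSTRG.8365, which carries the label Metazoa_SRP, the RNA of the signal recognition particle that guides secreted proteins to the endoplasmic reticulum. It had 47626, 51820 and 64794 counts in MII oocytes and 1265078, 1262653 and 1249666 in sperm, 0.0537% and 4.83% of the totals (log2 fold change 6.61 ± 0.17, edgeR adjusted p = 3.56e-05). The label is that of a noncoding RNA, although the locus stands in the mRNA table. The unlabelled MSTRG.73924 had 306, 386 and 349 counts in MII oocytes and 395727, 446401 and 407687 in sperm (12.32 ± 0.17), and MSTRG.8348 rose by 7.54 ± 0.20.

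MAPK10, a stress-activated protein kinase of the JNK family, was at 23, 36 and 227 counts in MII oocytes and 351335, 384949 and 323246 in sperm, or 1.35% of the sperm counts (log2 fold change 13.91 ± 1.42, edgeR adjusted p = 0.00423). PRM1, protamine 1, which packs sperm DNA, had 5, 0 and 27 against 113386, 128427 and 134556 (15.55 ± 1.99, edgeR adjusted p = 0.00525). PSP-II, a spermadhesin and major protein of boar seminal plasma, had 0, 0 and 27 against 122790, 115212 and 107076 (15.66 ± 2.56, edgeR adjusted p = 0.00525). Spermadhesins are made in accessory glands and coat the sperm surface, and PSP-II took 0.442% of the sperm counts, close to the 0.481% of PRM1.

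WDR27, a protein of WD40 repeats, had 2, 0 and 6 counts in MII oocytes and 31290, 30074 and 33113 in sperm (15.50 ± 1.46, edgeR adjusted p = 0.00321). The immune genes B2M, the light chain of MHC class I, and IFI6, induced by interferon, were higher in sperm by 7.81 ± 0.50 and 14.23 ± 2.19. ZNF598, a ubiquitin ligase that senses collided ribosomes, had 4, 37 and 180 against 49349, 42428 and 41193, and DAB2IP, a Ras GTPase-activating protein, had 0, 0 and 3 against 22295, 32879 and 30980. SETD3, a histidine methyltransferase of actin, differed least of the 10, with 10383, 11233 and 10293 against 20447, 13677 and 23403 (2.95 ± 0.32). Sperm libraries held more counts of each of these loci than any oocyte library did although their totals were 3.92-fold smaller.

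Some loci had no count in one of the gametes. MSTRG.12085 was at 0 in all 3 MII oocyte libraries and had 107870, 103831 and 106912 in sperm, at least 138726-fold higher when each oocyte library is set at a floor of 3 counts. AMCF-II, a chemokine that attracts neutrophils, had 0 against 14454, 11243 and 20566, at least 20176-fold higher. In the other direction MSTRG.73792 had 13134, 14719 and 15104 counts in MII oocytes and 0 in sperm, at least 1218-fold lower, and TKT, transketolase of the pentose phosphate pathway, had 11062, 9894 and 11517 against 0, at least 921-fold lower. The floor is a larger share of the smaller sperm totals, so bounds in the 2 directions are not on the same footing.

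Among the labelled loci with 0 counts in every oocyte library, SLC4A10, a bicarbonate transporter, had 9274, 14059 and 11460 counts in sperm, and ACSBG2, an acyl-CoA synthetase of the testis, had 7446, 2093 and 3596. PLK4, the kinase that starts centriole duplication, had 2584, 3740 and 1792. Among those with 0 in every sperm library were XDH, xanthine dehydrogenase (7546, 6881 and 6368 in MII oocytes), ORC1, a subunit of the origin recognition complex (6541, 3873 and 6290), and RAD54L, a recombination factor (4948, 2724 and 5781). Each of these 6 passed the threshold.

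**Figure D3:**
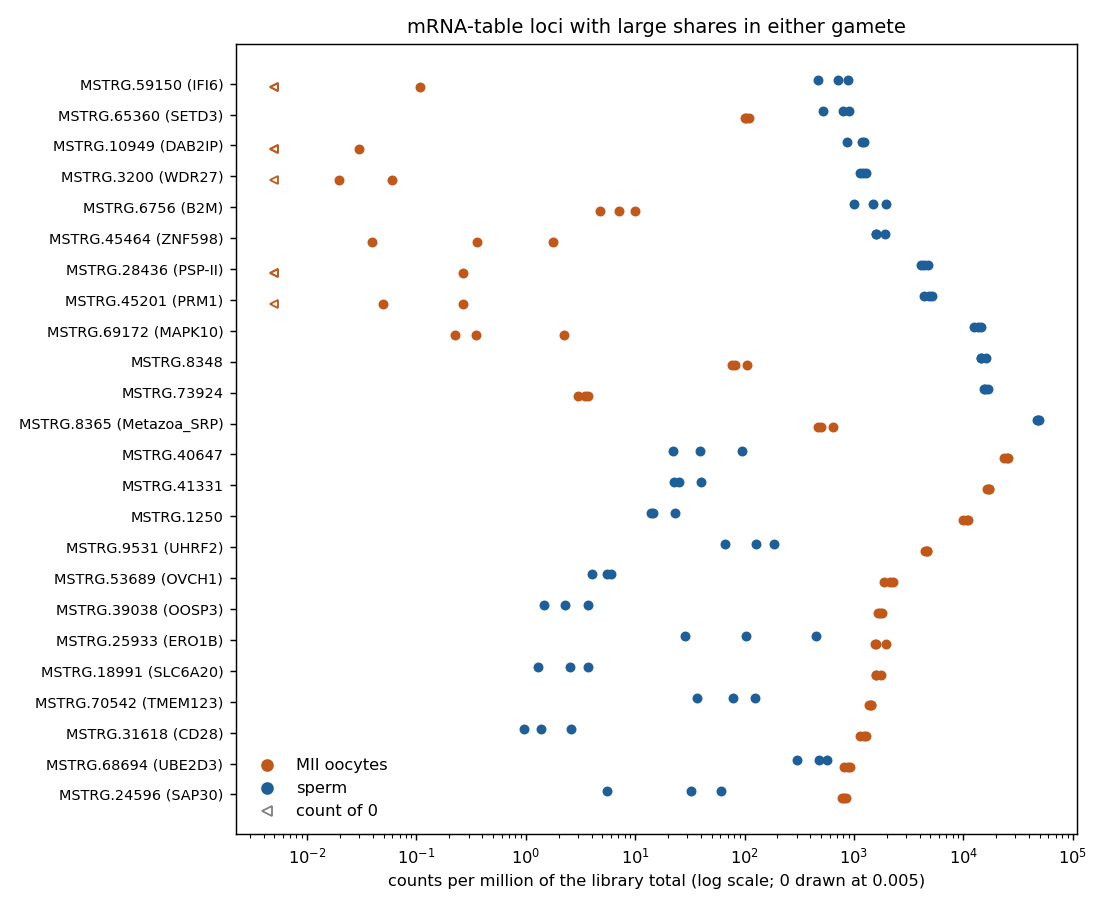
CPM values of the library total (horizontal axis, log scale) are plotted for named loci that lead in either gamete, 1 point per library, with MII oocytes and sperm in different colours, and counts of 0 drawn as open triangles at the left edge. Groups do not overlap for any locus shown, and PRM1, for example, runs from 0 to 27 counts in MII oocytes and from 113386 to 134556 in sperm.

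The sperm and oocyte labels were checked against defining markers. Of 18 sperm markers 7 had a labelled locus and 5 loci were tested: PRM1, a pair of loci of the axonemal dynein DNAH1 and ODF2, of the outer dense fibres of the tail, were higher in sperm, and SPATA16, an acrosome protein, was lower at 1945, 2712 and 1380 against 4, 4 and 0. Summed over the 7 genes, MII oocytes held 2022 to 3122 counts and sperm 121560 to 142483. Most of the latter were from PRM1 alone, at 113386 to 134556. Of 19 oocyte markers only OOEP, BTG4 and KIT had a locus, so the oocyte label rests on few of them. OOEP, of the subcortical maternal complex, had 1603, 2013 and 1797 counts in MII oocytes and 0 in every sperm library. BTG4 and KIT went the other way in single libraries, BTG4 with 1708 counts in sperm replicate 2 alone and KIT with 1370 in sperm replicate 1 and 188 in MII oocyte replicate 3. Neither was in enough libraries to be tested.

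Markers of other cell types were also counted. Of 14 cumulus and granulosa markers 6 had a locus, with summed counts of 1255, 2525 and 3017 in MII oocytes and 2265, 17183 and 2656 in sperm. Sperm replicate 2 was highest, and 1 locus of CYP19A1, aromatase, had 50, 43 and 0 against 1906, 4117 and 597, while another had 79, 431 and 434 against 0. Of 6 tested loci of this list 1 was higher in sperm and 4 (66.7%) were lower, near the 64.2% over all labelled loci. Without that library 11244 of 28712 tested mRNA loci passed the threshold, against 11960 of 19353 with it, so the tested sets differ. FSHR, the receptor of follicle-stimulating hormone, had 266, 612 and 682 in its tested locus in MII oocytes and 0, 8 and 0 in sperm. Leukocyte markers with a locus, 3 of 6, summed to 1202, 701 and 1000 in MII oocytes and 1362, 884 and 0 in sperm, and ITGAM, the integrin of myeloid cells, had 948, 696 and 848 in its tested locus in MII oocytes and 0 in sperm. Of 7 epithelial and Sertoli markers GATA4 alone had loci, at 501, 944 and 38 in MII oocytes and 0 in sperm. A list of 11 spermadhesins and seminal plasma genes, drawn up after the data were seen, summed to 251, 5 and 315 in MII oocytes and 107076 to 122790 in sperm. The part of RNA from other cells in the differences above was not tested.

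Genes of the cilium and flagellum did not move as a block. Of 52 tested loci with a label from this list, 8 were higher in sperm (15.4%) and 37 lower (71.2%), beside 6.84% and 64.2% of all labelled loci, with a median log2 fold change of -9.20 against -8.61 over all labelled loci. The 8 were a pair each of DNAH1 and DNAH17, an outer arm dynein, and 1 each of ODF2, ARMC9, CFAP46 and ADCY10, the soluble adenylyl cyclase of sperm. The main DNAH1 locus had 4, 0 and 15 counts in MII oocytes and 6485, 3349 and 2784 in sperm, and ODF2 had 3, 0 and 4 against 885, 4665 and 1296. On the other side, DNAI1, a dynein intermediate chain, had 3881, 2286 and 2803 counts in MII oocytes and 0 in sperm. Single genes held loci of both directions: DNAH17, ARMC9 and CFAP46 each also had a locus that was lower in sperm.

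Of 27 loci of spermatogenesis and meiosis genes 5 were higher in sperm (18.5%) and 17 lower (63.0%), the latter near the 64.2% over all labelled loci. The 5 were PRM1, STK33, a kinase of spermatids (0 in MII oocytes and 475, 831 and 551 in sperm), PIWIL2, which binds piRNAs (1940, 2130 and 1602 against 2376, 2030 and 4414), SPATA6 and MEI1. Meiotic genes were among those lower: SPO11, which cuts DNA to start recombination, had 1013, 734 and 2140 in MII oocytes and 0 in sperm, SYCP2L, of the synaptonemal complex, 907, 1316 and 1118 against 0, and RNF17, of germ granules, 3058, 4238 and 3089 against 0. The list thus held genes of both directions, and summed counts of 38920 to 43826 in MII oocytes and 150700 to 184890 in sperm, most of the latter from PRM1.

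The other lists stand beside the same background of 6.84% higher and 64.2% lower over all labelled loci. Of 9 oocyte-list loci 0 were higher in sperm and 5 lower (55.6%), in OOEP, ACCSL and LHX8, a transcription factor of early oocytes, and the summed counts of the list, 8415 to 9162 in MII oocytes and 6956 to 10680 in sperm, were a larger share of the smaller sperm totals. Of 60 centrosome and cell cycle loci 4 were higher (6.67%), PLK4, SKA3, CLASP1 and CCNL1, and 35 lower (58.3%). Of 98 loci of kinases and phosphatases 12 were higher (12.2%) and 59 lower (60.2%), and among the former PRKAA2, a catalytic subunit of the energy sensor AMPK, had 137, 7 and 11 counts in MII oocytes and 4659, 869 and 3221 in sperm. RNA binding and splicing genes had a median log2 fold change of 0.02, with 12 of 79 loci higher (15.2%) and 32 lower (40.5%). Chromatin regulators, with 7 of 54 higher (13.0%) and 23 lower (42.6%), had a median of -0.54. Of 64 loci of the ubiquitin system 2 were higher (3.12%) and 31 lower (48.4%), and of 116 loci of small GTPases and membrane traffic 12 (10.3%) and 65 (56.0%).

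Among lncRNA transcripts 11162 of 60759 passed the filter, of which 9245 were lower in sperm (82.8%) and 404 higher (3.62%), by limma on log2(coverage + 1) at the same thresholds. The filter asked for a coverage of 1 or more in at least 3 libraries. Transcripts above 0 in all 3 libraries numbered 12567 in MII oocytes and 843 in sperm, so this filter favoured oocyte transcripts. The many lower calls thus partly follow from the filter. The split also depended on the scaling: when all libraries were given the same distribution of values, 596 were higher and 712 lower. The deposited coverage was tested as it stood, with the sums 1.64-fold higher in sperm.

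The 3 highest lncRNA transcripts of MII oocytes were each lower in sperm. MSTRG.51726.1 had a coverage of 113378, 114914 and 111978 in MII oocytes and 43.9, 72.0 and 53.0 in sperm (log2 fold change -10.98 ± 1.74 SE, limma adjusted p = 0.0018). MSTRG.65584.1 had 57940, 58749 and 56840 against 17.4, 30.7 and 17.7 (-11.35 ± 0.95), and a transcript at SLC6A20 had 38618, 39462 and 43216 against 7.86, 23.6 and 15.6 (-11.36 ± 0.80). Among lower ranks, one at NKAIN2, which interacts with the sodium pump, had 9577, 10755 and 10494 against 1.73, 2.42 and 3.87 (-11.49 ± 0.37). Sperm coverage of these transcripts was low but never 0. A transcript at YAE1, with a larger share of the oocyte coverage than that of NKAIN2, did not pass, with 13220, 12815 and 13095 in MII oocytes and 499, 493 and 2028 in sperm (-4.04 ± 2.18, limma adjusted p = 0.131).

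Sperm lncRNA differed from library to library in which transcript of a locus was covered. At the Metazoa_SRP locus transcript 1 had 108868, 86305 and 94500 in sperm and 203, 361 and 1825 in MII oocytes, and although the groups did not overlap it did not pass (7.55 ± 4.10, limma adjusted p = 0.132). Transcript 2 had 102310 in sperm replicate 2 alone, transcript 3 had 90303 in replicate 1 alone and transcript 4 had 81566 in replicate 3 alone. At MAPK10 a transcript was likewise at 77468 in sperm replicate 3 alone. Of the 15420 transcripts above 0 in any sperm library 12348, or 80.1%, were in 1 alone, and 843 were in all 3, against 12567 of 43190 in MII oocytes.

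Some transcripts found in every sperm library did pass the threshold. Transcript 5 of the Metazoa_SRP locus had 0 in MII oocytes and 17770, 22564 and 41008 in sperm (14.63 ± 0.41, limma adjusted p = 5e-06). A transcript that overlaps PRM1 had 0.98, 0 and 5.27 in MII oocytes and 22557, 25549 and 26768 in sperm (13.39 ± 0.74, limma adjusted p = 2.48e-05), 1.05% of the sperm coverage. Its sperm values stood in the same order as the counts of that locus in the mRNA table, and reads of overlapping transcripts can be counted in both. Loci that carry lncRNA transcripts took 21.7 to 22.0% of the mRNA table's counts in MII oocytes and 44.3 to 44.6% in sperm.

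Of 2340 circRNAs above 0 in a gamete 486 were in at least 2 libraries and could be tested, and 11 were lower (2.26%) and 8 higher (1.65%) in sperm by edgeR's quasi-likelihood test. Without replicate 1 or without replicate 2 of the oocytes edgeR called 0, with 171 and 156 at an unadjusted p under 0.05 and each of the 19 still in its direction, and without oocyte replicate 3 it called 13. Without a sperm library it called 21 and 17, but the sperm group was then 1 library assumed to vary like the oocytes. DESeq2 called 73 higher and 192 lower on all 5 libraries, among them all 19. The direction split moved with the scaling, to 0 higher and 10 lower with TMM factors and to 80 higher and 11 lower per valid read, while the counts below do not depend on it.

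UBAP2, a ubiquitin-associated protein on chromosome 10 (Sscrofa11.1, 10:32755707-32897260 by RefSeq), gave the most abundant circles of MII oocytes. CircRNA450 had 3537, 3592 and 3602 counts in MII oocytes and 0 and 4 in sperm (log2 fold change -13.44 ± 1.64, edgeR adjusted p = 0.00277). CircRNA453 of the same gene had 1217, 1066 and 1329 and 0 in both sperm libraries, at least 2745-fold lower with each sperm library set at 3 counts (edgeR adjusted p = 0.000579). All 9 UBAP2 circles together made 4837, 4750 and 4935 counts, or 19.8 to 21.6% of the circRNA counts of an oocyte library. The 3 oocyte libraries thus lay close together for this gene.

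The other circles of MII oocytes past the threshold came from genes of varied roles and were at 0 in both sperm libraries. CircRNA415 of CENPJ, a builder of centrioles (11:289660-357920), had 632, 649 and 502 counts and was at least 1349-fold lower in sperm. CircRNA159 of NBAS, which tethers vesicles between Golgi and endoplasmic reticulum (3:121882734-122242325), had 626, 629 and 308, at least 1177-fold lower, and circRNA160 of the same gene had 154, 123 and 320. CircRNA206 of AHI1, a protein of the ciliary transition zone (1:28566279-28760471), had 287, 570 and 455, at least 997-fold lower.

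Circles of OSBPL1A (169, 144 and 241), COG5 (203, 142 and 189), TBC1D32 (287, 203 and 44), ENAH (102, 306 and 64) and ERC1 (80, 97 and 130) completed the list, with bounds of at least 234-fold to 423-fold. OSBPL1A binds sterols, COG5 belongs to a Golgi tethering complex, TBC1D32 acts in cilia, ENAH in actin growth and ERC1 at the cell cortex. CircRNA710 of FANCL, a ubiquitin ligase of DNA repair, was among the 10 highest of MII oocytes on 0, 211 and 317 counts and did not pass (edgeR adjusted p = 0.105). Oocyte libraries thus differed widely for some of these circles, TBC1D32 and ENAH among them, and little for those of UBAP2.

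In sperm the highest circle was circRNA199 of WDR27 (1:578491-720106), with 1, 0 and 0 counts in MII oocytes and 6309 and 5518 in sperm (log2 fold change 11.21 ± 1.55, edgeR adjusted p = 0.00463). A further WDR27 circle, circRNA1187, had 0, 0 and 2 against 2076 and 1133 (edgeR adjusted p = 0.0647). Together they made 5.38% and 3.96% of the sperm circRNA counts, and the labelled mRNA locus of WDR27 was also among the highest labelled loci of sperm. For WDR27 the circles and the locus were thus both high in sperm.

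Circles of 4 genes past the threshold had 0 in every oocyte library. CircRNA2050 of TESK2, a testis-type kinase of the cofilin pathway (6:165874176-166000002), had 1166 and 3843 in sperm, at least 120-fold higher. CircRNA1881 of PRKAR1A, the regulatory subunit of protein kinase A (12:11662344-11681490), had 1940 and 2393, at least 105-fold higher. CircRNA2051 of ERI3, an exoribonuclease (6:166957241-167082631), had 1542 and 2311, at least 93.3-fold higher, and circRNA1974 of ZSWIM6, a zinc finger protein (16:40105499-40305379), had 762 and 2682, at least 82.3-fold higher. Their edgeR adjusted p-values ran from 0.0173 to 0.0293, and all fell past the threshold in these 5 libraries.

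RRP1, of ribosome assembly, PPA2, the mitochondrial pyrophosphatase, and THAP4 gave the other 3. CircRNA1330 of RRP1 had 0, 0 and 1 in MII oocytes and 2059 and 2161 in sperm, circRNA1282 of PPA2 had 0, 0 and 2 against 1998 and 2118, and circRNA516 of THAP4 had 1, 0 and 0 against 857 and 2058. CircRNA905 of XPO4, a nuclear exporter, was the second highest in sperm at 3877 and 3104, with 0, 51 and 5 in MII oocytes, and did not pass (edgeR adjusted p = 0.105). CircRNA63 of ERI3, with 33, 0 and 1 against 2377 and 4081, also missed it (edgeR adjusted p = 0.105).

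**Figure D4:**
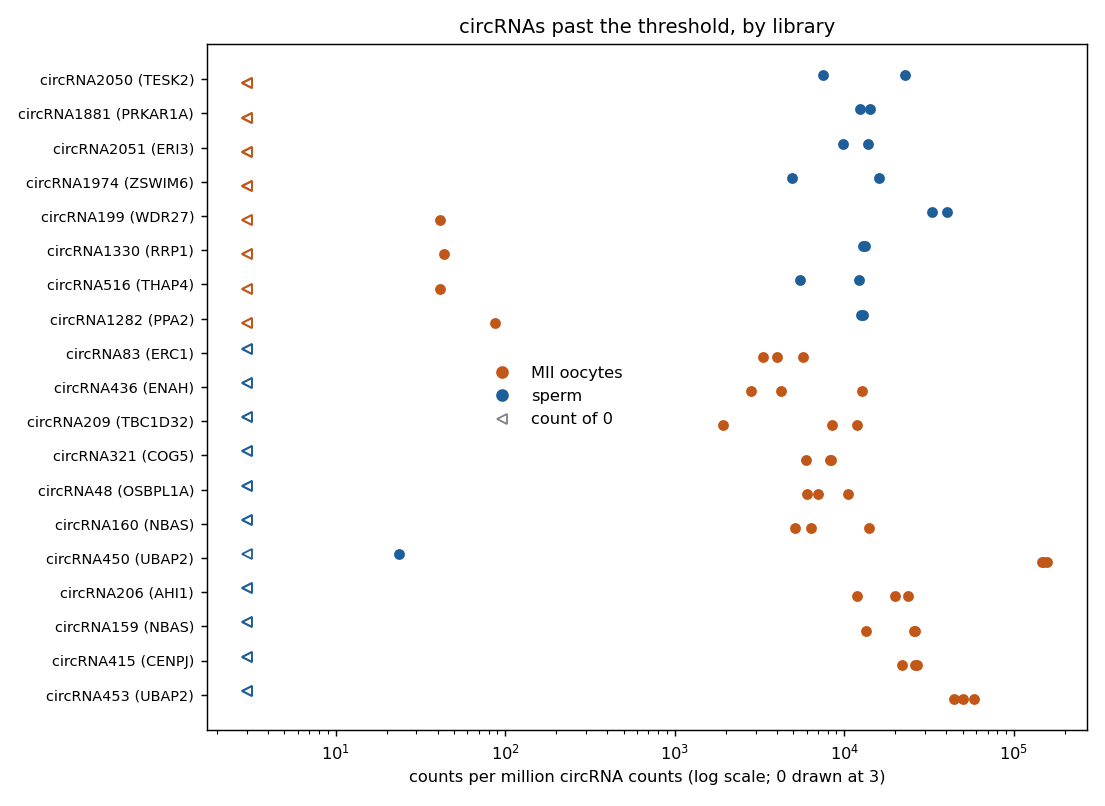
Each of the 19 circRNAs past the threshold is plotted in CPM of a library's circRNA total (horizontal axis, log scale), 1 point per library for the 3 MII oocyte and 2 sperm libraries, with counts of 0 drawn as open triangles at the left edge. CircRNA450 of UBAP2 holds 14.6 to 15.8% of the counts in MII oocytes and at most 4 counts in sperm, and circRNA199 of WDR27 holds 3.29 to 4.05% in sperm and at most 1 count in MII oocytes.

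The study followed sperm circRNAs into the pronuclear embryo, and sequences the study designed for 2 of them are shown because a circle is recognised by a junction that its linear RNA does not have. For circRNA1572 of C18orf25, a circle of 785 bases, the 15 bases before the back-splice junction are in lower case and the 15 after it in capitals, and the siRNAs designed against it span this point with 6 and 11 bases after the junction. For circRNA1881 of PRKAR1A the divergent primers point away from each other on the linear RNA, and capitals mark the 9 bases of the reverse primer that it shares, on the opposite strand, with the convergent forward primer. The position of the circRNA1881 junction is not marked. All are given 5′ to 3′.
siRNA with 6 bases after the junction: gcagagauaccagGUUGGU
circRNA1572 junction: cugcagagauaccagGUUGGUUUCCUGUUG
siRNA with 11 bases after the junction: gauaccagGUUGGUUUCCU
circRNA1881 divergent forward primer: gagagactgttattcagcaaggtga
circRNA1881 divergent reverse primer: cagcaataaaggaaaCCGGAAACA

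CircRNA1572 itself was at 0 in the 3 libraries of MII oocytes and had 0 and 1332 counts in sperm, so it was seen in 1 of the 2 distinct sperm libraries. The study also measured it by qPCR, where it was high in sperm and higher in pronuclear embryos than in MII oocytes. CircRNA1881, given above, had high counts in both distinct sperm libraries. Of 10 circRNAs that the study plotted, some of which it took further, 9 had 0 in all oocyte libraries, and circRNA686 of MAN1A2, a mannosidase of the Golgi, had 0, 2 and 1 against 224 and 337 in sperm.

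Several of the 10 were uneven between the sperm libraries. CircRNA1892 of MAP2K4, a kinase that activates JNK, had 33 and 998, circRNA1985 of the transcription factor CREB1 had 442 and 75, and circRNA1928 of TMEM43 had 303 and 1. CircRNA1996 of HNRNPH3, circRNA2062 of PLXNC1 and circRNA2001 of TBC1D12 were each in 1 sperm library alone, with 334, 263 and 671 counts. Of the 10, circRNA1881 and circRNA1974 passed the threshold, and because the study listed them as sperm circRNAs their direction is no independent evidence.

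Only 8 circRNAs were above 0 in all 5 libraries, and their levels overlapped or leaned to either gamete. CircRNA221 of SMAD4, the shared SMAD of TGF-beta signalling, had 45, 258 and 156 counts in MII oocytes and 722 and 113 in sperm, where totals were 6.83-fold larger (log2 fold change -1.29, edgeR adjusted p = 0.433). CircRNA42 of ZMYM4 had 157, 54 and 76 against 494 and 518 (-0.36), and circRNA331 of DTL, a substrate receptor of a ubiquitin ligase, had 3, 8 and 8 against 338 and 721 (edgeR adjusted p = 0.116). The others came from PPA2, NAALADL2, CDC42BPA, MCM6 and ABI2, and none of the 8 passed.

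The circles of MII oocytes came from 938 host genes and those of sperm from 809, of which 264 were common, 28.1% of the oocyte and 32.6% of the sperm hosts. The number shared fell to 142 when a host needed 10 or more counts in a library, to 38 when a host had to be in at least 2 libraries of each gamete, and to 171 without sperm replicate 1 and 174 without sperm replicate 2. In 136 of the 264 (51.5%) the gametes had no circRNA in common. Over all circles 140 of 2340 (5.98%) were in both gametes, and libraries of the same gamete shared only 12.5 to 15.2%. ENSSSCG00000040615, which the reference tables name MALRD1, had 78, 61 and 117 counts over 6 circles in MII oocytes and 0 and 999 over 2 other circles in sperm. UVRAG, of autophagy, had 68, 35 and 81 over 3 circles against 554 and 0 in 1 other circle. The histone acetyltransferase subunit ELP3 and the kinase CIT showed the same pattern, each with its sperm counts in 1 library.

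Hosts gave more different circles in oocytes. Within single libraries a host had on average 1.35, 1.29 and 1.38 circRNAs in MII oocytes and 1.16 and 1.14 in sperm. Pooled over the 3 oocyte and the 2 sperm libraries, which favours the oocytes, the mean was 1.57 and 1.24, 71.6% and 82.6% of hosts had a single one, and 37 hosts of MII oocytes against 3 of sperm had 5 or more. NBAS led in MII oocytes with 14 circles (833, 855 and 746 counts, 0 in sperm), and EXOC4, of the exocyst, had 12 (145, 240 and 208, 0 in sperm). In sperm ADAMTS6, a secreted protease, and KDM5B, a histone H3K4 demethylase, led with 6 circles each, at 881 and 1269 and at 1576 and 835 counts, against at most 54 and 3 counts in an oocyte library. DENND1B, an activator of Rab35, had 4 circles in either gamete and 51, 85 and 34 against 987 and 3132 counts.

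The hosts were long genes in both gametes. The median gene length in RefSeq was 111.8 kb for hosts of MII oocytes alone, 73.8 kb for hosts of sperm alone and 119.6 kb for shared hosts, against 19.2 kb for all 20623 protein-coding genes. On the X chromosome lay 2.82%, 1.94% and 2.18% of these hosts and 3.69% of all protein-coding genes. These values are descriptions and were not tested.

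**Figure D5:**
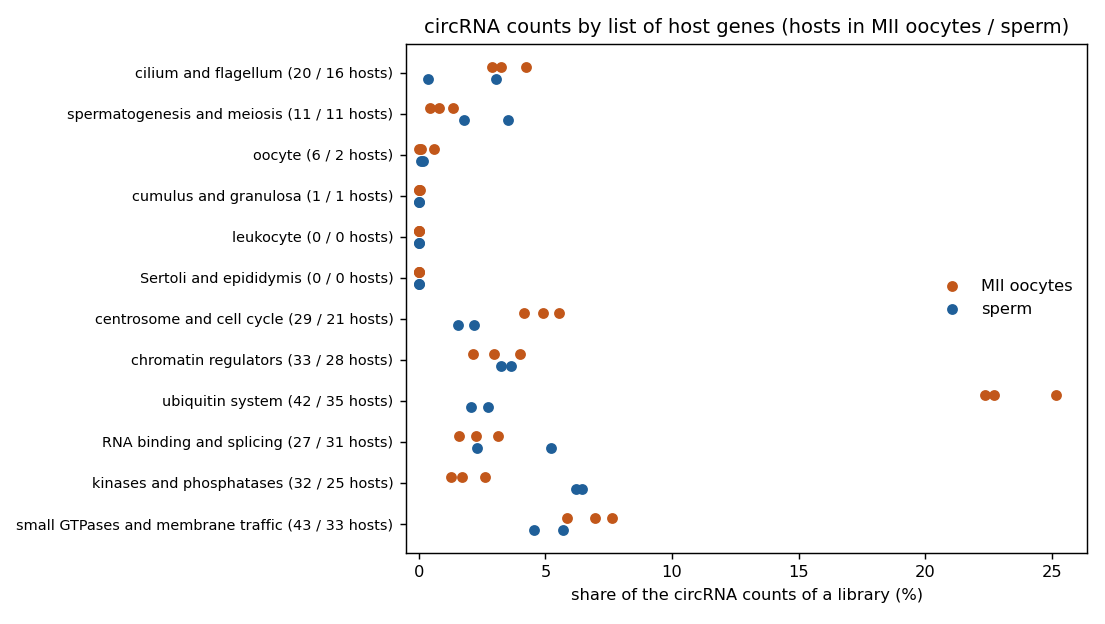
The plot shows, for each list of host genes, the percentage of a library's circRNA counts that its circles hold, 1 point per library for the 3 MII oocyte and 2 sperm libraries. The ubiquitin system stands at 22.4 to 25.1% in MII oocytes and 2.08 to 2.74% in sperm, kinases and phosphatases at 1.26 to 2.63% and 6.21 to 6.45%, and the gametes lie closer together for the other lists.

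Grouped by function, the hosts differed most in the ubiquitin system. Its circles held 22.4%, 22.7% and 25.1% of the counts in MII oocytes and 2.08% and 2.74% in sperm, although its hosts numbered 42 and 35. Nearly all of this was UBAP2: without that gene the shares were 2.39%, 2.93% and 3.51% against 2.08% and 2.74%, which overlap. Of 23 tested circles of the list 0 were higher in sperm and 2, both of UBAP2, were lower. Over all 486 tested circles 1.65% were higher and 2.26% lower, and the counts of the lists below stand beside those shares.

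Kinases and phosphatases lay the other way, with 1.71%, 1.26% and 2.63% of the counts in MII oocytes and 6.45% and 6.21% in sperm, from 32 and 25 hosts. TESK2 and PRKAR1A led in sperm, followed by DYRK1A, with 496 and 1199 counts over 4 circles and 0 in MII oocytes, and PRKAA2, with 1284 and 0. Of 16 tested circles 2 were higher in sperm and 0 lower, beside 8 and 11 of 486 over all circles. Without TESK2 the groups still did not overlap, at no more than 2.60% in MII oocytes and 5.70% and 3.92% in sperm. These shares still held PRKAR1A, at 1.25% and 1.43% of the sperm counts and 0 in MII oocytes. Leaving out both genes was not tried.

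Circles of spermatogenesis and meiosis genes held 0.442%, 1.37% and 0.780% in MII oocytes and 1.77% and 3.51% in sperm, from 11 hosts in each. Besides TESK2 they were led in sperm by LDHC, the lactate dehydrogenase of the testis (15, 0 and 73 counts against 648 and 270), STK31 (0 against 172 and 501) and ZPBP, which binds the zona pellucida (0 against 376 and 273). In MII oocytes SMC1B, the meiotic cohesin, was highest with 53, 27 and 40 counts against 1 and 0 in sperm. The groups did not overlap, but without TESK2 they did, at 0.442%, 1.304% and 0.758% against 1.02% and 1.22%. Of 7 tested circles 1 was higher in sperm, that of TESK2, against 8 of 486 over all.

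Centrosome and cell cycle hosts held 5.54%, 4.90% and 4.16% in MII oocytes and 2.16% and 1.53% in sperm, with CENPJ the largest in oocytes, and 1 of 13 tested circles was lower in sperm, against 11 of 486 over all. Without CENPJ the shares were 2.71%, 2.20% and 1.96% against 2.16% and 1.53%, which overlap. Small GTPase and membrane traffic hosts held 7.64%, 5.84% and 6.96% against 4.54% and 5.68%, and of 29 tested circles 2 were lower in sperm, of COG5 and TBC1D32, again beside 11 of 486. Without COG5 these groups overlapped too, at 6.17%, 4.68% and 5.69% against 4.48% and 5.15%. COG5 as a gene had circles in both gametes, with 356, 279 and 290 counts in MII oocytes over 10 circles and 92 and 884 in sperm over 2.

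Hosts of the cilium and flagellum overlapped, at 3.26%, 4.23% and 2.90% in MII oocytes and 0.357% and 3.04% in sperm. AHI1 and CFAP44 led in oocytes, while in sperm CFAP43, DNAH12, TEKT3 and DNAH10 had 891, 809, 613 and 509 counts in replicate 2 and at most 3 in replicate 1. RNA binding and splicing hosts (1.59 to 3.13% against 2.30 and 5.23%) and chromatin regulators (2.12 to 3.98% against 3.25 and 3.64%) overlapped too. Hosts from the oocyte list were few and low in both gametes, 6 in MII oocytes and 2 in sperm. In MII oocytes WEE2, a meiotic kinase, and ZP2, of the zona pellucida, had 84 and 49 counts in replicate 1 alone. The 2 in sperm were TUT7, with 0 in MII oocytes and 120 and 196 in sperm, and TUT4, with 13, 3 and 0 against 0 and 63. The 1 tested circle of this list, at a log2 fold change of 9.26, did not pass. The leukocyte list and the Sertoli and epididymis list gave 0 hosts, and the cumulus and granulosa list gave VCAN with 8 counts in 1 oocyte library and CYP19A1 with 19 in 1 sperm library.

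The labelled mRNA loci of host genes were compared last. Loci of genes that were hosts in MII oocytes alone were higher in sperm in 21 of 512 tested (4.10%) and lower in 367 (71.7%), beside 6.84% and 64.2% of all labelled loci. Those of hosts in sperm alone were higher in 35 of 240 (14.6%) and lower in 120 (50%), and those of shared hosts in 13 (9.70%) and 83 (61.9%) of 134. The median log2 fold changes were -9.09, -3.61 and -8.15, beside -8.61 for all labelled loci, and no test was run on these classes.

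For single hosts the locus and the circle could differ. The 4 tested loci of NBAS were lower in sperm, as its circles were, with 4757, 2511 and 3073 counts in MII oocytes over all 15 loci and 0, 3 and 5 in sperm. The tested locus of TBC1D32 was also lower, with 2432, 3301 and 2723 against 3, 0 and 0. For WDR27, as given above, the locus and the circles were both high in sperm. The 18 labelled loci of ZSWIM6 together had 293, 494 and 338 counts in MII oocytes and 3649, 7614 and 3539 in sperm. Its circle past the threshold was also higher in sperm, and none of the 18 loci could be tested. For some other hosts the loci and the circles lay apart. The labelled loci of AHI1 together had 0, 318 and 0 counts in MII oocytes and 4868, 4018 and 2134 in sperm, those of ERC1 0, 0 and 59 against 8289, 4332 and 0, those of CENPJ 196, 2 and 0 against 0, 978 and 3504, and those of COG5 0 against 1838, 1 and 4152, although their circles past the threshold were in MII oocytes alone, and none of these loci could be tested. ERI3 also differed, its tested locus having 377, 121 and 49 counts in MII oocytes and 0 in sperm while its circles had 3940 and 6392 counts in sperm and at most 102 in an oocyte library. UBAP2, PRKAR1A, TESK2, RRP1, PPA2 and THAP4 had no labelled locus, so no locus was set beside their circles. Reads from inside a circle can also count to a locus, and the mRNA table does not separate them.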

How the data were processed

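The mRNA, lncRNA and circRNA tables of the whole series were used. The authors trimmed reads with cutadapt 1.9, mapped them to Sscrofa11.1 and assembled transcripts, and the submitters' processing notes also name HISAT2 2.0.4, TopHat2 2.0.4, StringTie 1.3.4d and edgeR. The deposited mRNA table holds counts per assembled locus and the deposited circRNA table holds counts of back-splice junctions, neither normalized. The deposited lncRNA table holds coverage per transcript, a signal, not a count, and is comparable between libraries only as far as its depth allows. Columns of unmapped samples numbered 0.

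mRNA counts were tested with edgeR 4.0.16 (quasi-likelihood, TMM, filterByExpr). CircRNA counts were scaled to the library's circRNA total and tested likewise, for circRNAs above 0 in at least 2 libraries. The SE given with an edgeR fold change is approximate. It is the absolute log2 fold change divided by the square root of the F statistic. Coverage was tested with limma 3.58.1 on log2(coverage + 1), for transcripts at 1 or more in at least 3 libraries. Thresholds were an absolute log2 fold change of 1 and a Benjamini-Hochberg adjusted p of 0.05. Values per library were compared by exact two-sided permutation tests (scipy 1.17.1). Fitted fold changes of features at 0 in a gamete depend on the prior count, so bounds use a floor of 3 counts per library. Floors cover counting error only, since reads without molecular identifiers are not independent molecules. Libraries were brought to equal totals by the expected number of loci. The scripts were tested on simulated data.

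Loci and circRNAs were named by rule: the largest shares in each gamete, the largest differences without overlap, circRNAs in all 5 libraries, 10 that the study plotted, and per list the hosts with the highest counts. List members named as mRNA loci were chosen after their values were seen. The members and gene lists were chosen with earlier results of these data known. Of 70688 loci, 28170 had 1 gene label. Gene coordinates are those of RefSeq for Sscrofa11.1, the siRNAs and primers are those designed by the study, and the junction was made by joining the end of its circRNA1572 sequence to the start. Alternatives were DESeq2 1.42.0, other scalings, filters and pseudocounts, a replicate block, leaving out each library and, chosen after seeing the data, leaving out the leading host of a list. Some items that the naming rule selects are not reported here.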

Additional observations from a re-analysis of the deposited data

How the results depend on the processing

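Of 19353 tested mRNA loci 11960 passed, against 497 with no filter (193 higher and 304 lower of 63048 tested). With 1 library left out the filter let 20971 to 28712 loci be tested, and 10950 to 11572 passed. Scaling by total count alone moved the median log2 fold change by 0.26. Of 11162 tested lncRNA transcripts 9649 passed, and 1308 after quantile normalization. With 1 library left out 6920 to 11099 passed, of 15734 to 21288 tested. Summing coverage per locus, an alternative chosen after seeing the data, gave 267 higher and 8735 lower. Of circRNAs 19 passed, against 10 with TMM, 91 per valid read, 265 with DESeq2, 70 when 3 libraries were required and 0 to 21 with 1 library left out. It was 0 without MII oocyte replicate 1 or 2, and the cause was not tested. The differences between gametes reversed for the mRNA share of the 10 highest loci (3.91 percentage points higher in sperm), the lncRNA share of the 1000 highest (2.28 points higher) and the number of circRNAs with 10 or more counts (159 more in sperm). No share of the 1000 highest circRNAs could be given. Shared hosts fell from 264 to 142 at 10 or more counts and to 38 in at least 2 libraries, and ranged from 171 to 227 with 1 library left out. Same-numbered libraries deviated together by correlations of 0.0029 to 0.0154 only, so the numbers do not pair the samples. With the replicate block edgeR called 1027 mRNA loci (404 higher and 623 lower) and 0 circRNAs (12 at an unadjusted p under 0.05, with 265 in DESeq2 without the block), and limma 9663 transcripts. Leaving out the leading host of each of the 5 lists whose groups do not overlap, chosen after seeing the data, kept every direction and left 1 list without overlap, kinases and phosphatases. A count of 0 allows up to 0.0132% of the circRNA counts in an MII oocyte library and 0.00193% in a sperm library.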
